A study of Mus musculus with 66 samples.

Results

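The myogenic regulatory genes examined here were Myod1, Myf5, Myf6, Myog, Pax7, Pax3 and Six4, the factors that specify and drive the skeletal muscle lineage. They were chosen by name, and all 7 were found among the 22489 genes of the deposited mRNA-Seq table. The cells were C2C12, a mouse myoblast line that proliferates as single cells in rich serum and fuses into multinucleated myotubes once serum is withdrawn. Wild-type cells (WT) carried no transgene, and 9 further lines carried a GFP-tagged histone H3 (the canonical H3.1 and H3.2, the replacement histone H3.3, the H3.1-like H3t, or the mouse proteins H3mm16, H3mm13, H3mm12, H3mm11 and H3mm7) behind a doxycycline-inducible promoter, introduced by a transposon vector and selected with G418 and by sorting of GFP-positive cells. Growth libraries came from sub-confluent cells in 20% serum, and differentiated libraries from cells kept for 48 h in 2% horse serum after confluence. Each of the 10 lines gave 1 library in each state, 20 libraries in all, so a single line has no replicate of its own, and the H3 it expressed, its clonal history and its culture cannot be told apart. The values named H3t come from columns headed H3mmT, a name that matches no other line.

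MyoD (Myod1), Myf5, myogenin (Myog) and MRF4 (Myf6) are basic helix-loop-helix (bHLH) proteins that pair with E proteins and bind the E-box motif in muscle gene promoters. MyoD and Myf5 are present in proliferating myoblasts and can commit cells to the lineage, myogenin is switched on at the exit from the cell cycle and is needed for terminal differentiation, and MRF4 is typical of mature fibres. Pax3 and Pax7 act upstream in embryonic progenitors and satellite cells, and Six4 is a homeodomain factor that binds the MEF3 motif in regulatory regions such as the myogenin promoter.

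The promoters of Myog, Myod1 and Myf6 are shown because the first was the member that rose, the second moved in different directions in different lines, and the third stayed near 0. Each is the 250 bases before the annotated start in mm9, 5′ to 3′ on the strand of the gene. Capitals mark matches to the E-box (CANNTG), to MEF3 (TCAGGTT) and to a strict MEF2 form (YTAWWWWTAR), searched on both strands. Here Y is C or T, W is A or T, and R is A or G. The spans are chr1:136186331-136186580 on the + strand for Myog, chr7:53631594-53631843 on the + strand for Myod1 and chr10:106931786-106932035 on the - strand for Myf6.
Myog: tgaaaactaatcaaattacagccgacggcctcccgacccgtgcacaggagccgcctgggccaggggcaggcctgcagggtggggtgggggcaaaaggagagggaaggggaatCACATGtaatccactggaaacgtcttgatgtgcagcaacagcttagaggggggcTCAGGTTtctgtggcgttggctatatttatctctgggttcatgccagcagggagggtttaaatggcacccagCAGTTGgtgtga
Myod1: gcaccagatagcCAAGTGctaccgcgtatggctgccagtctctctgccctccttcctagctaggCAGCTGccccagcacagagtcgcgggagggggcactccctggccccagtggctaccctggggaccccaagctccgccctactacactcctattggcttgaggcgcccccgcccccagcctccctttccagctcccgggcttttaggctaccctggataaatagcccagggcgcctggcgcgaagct
Myf6: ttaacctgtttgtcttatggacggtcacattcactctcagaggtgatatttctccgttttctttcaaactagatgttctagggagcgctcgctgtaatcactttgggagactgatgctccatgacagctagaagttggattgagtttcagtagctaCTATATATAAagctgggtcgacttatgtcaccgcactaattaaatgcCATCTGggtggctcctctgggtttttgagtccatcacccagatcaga
The Myog window held E-boxes at -138 to -133 and -12 to -7 and the MEF3 word at -84 to -78, counted from the start. It also held CTATATTTAT, which departs from the MEF2 form only at its last base and was not counted. The lack of a MEF2 match in this window therefore depends on the form searched. The Myod1 window held E-boxes at -238 to -233 and -186 to -181, the second of which is the palindrome CAGCTG. The Myf6 window held an E-box at -47 to -42 and a MEF2 match at -94 to -85. The Myf5, Pax3 and Six4 windows held none of these words, and that of Pax7 held a CAGCTG E-box at -23 to -18. Among the same windows of 22375 protein-coding genes, 63.5% held an E-box, 11.8% a CAGCTG E-box (also counted as an E-box), 3.53% the MEF3 word and 2.94% a MEF2 match. An E-box in such a window is therefore common and a MEF3 word is not, and a match is a description of letters, not of binding. Myf5 (chr10:106919964-106923190) and Myf6 (chr10:106929916-106931785) are neighbours on the same strand with 6725 bases between them.

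Levels are given as FPKM (fragments scaled by transcript length and by mapped fragments), a scale per length that allows genes to be set side by side. Changes are given as differences of log2(FPKM + 1), which understates the change of genes near 0. Summed FPKM was 409319 and 465247 in the WT libraries against 583613 to 894105 in those of the GFP-H3 lines. Of 4562 genes at 10 FPKM or more in each of the 18 GFP-H3 libraries, 37 were below 1 FPKM in both WT libraries, 9 of them ribosomal protein genes, so WT stands apart from the other lines, and results that include it are also given without it where that matters. The part of this in the results was not tested. The summed FPKM of 8 myoblast and myotube markers was 275 to 785 in growth and 2675 to 12173 in differentiated libraries. Sox10, Sox2, Elavl3, Neurod1, Pecam1, Kdr, Ptprc, Cd3e, Sp7, Ibsp, Adipoq, Plin1 and Myh11, markers of neural, endothelial, immune, bone, fat and smooth muscle cells, were below 1 FPKM in every library. The summed markers of fat, bone, endothelial and immune cells reached at most 35.0, 14.8, 7.66 and 3.91 FPKM in any library. Within the fat list Pparg was at 14.4 to 29.8 FPKM in growth and 6.77 to 17.5 in differentiated libraries. Tubb3, from the neural list, was at 4.52 to 128 FPKM and Acta2, a smooth muscle actin also known from myoblasts, at 421 to 3070. Some of these markers moved with state. Acta2 was called higher in differentiated cells (log2 difference 1.19), and Tubb3 (-2.32), Cnn1 of the smooth muscle list (-2.04, at most 21.2 FPKM), Runx2 of the bone list (-1.20) and Cdh5 of the endothelial list (-1.02) were called lower, while Cd68 of the immune list (-0.26) was not called. Their part in the results was not tested.

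Myog was the member that changed with differentiation, in every line. In growth its level was 0.106 FPKM in H3.1, 1.19 in H3t, 3.21 in H3.2, 7.35 in H3.3, 7.87 in H3mm16, 8.02 in WT, 9.46 in H3mm11, 12.4 in H3mm13, 16.9 in H3mm12 and 23.1 in H3mm7. After differentiation it was 329 FPKM in H3t, 333 in H3.1, 347 in H3mm11, 496 in H3mm7, 513 in H3.3, 657 in H3mm16, 701 in H3mm13, 930 in H3.2, 1023 in WT and 1151 in H3mm12. The lowest differentiated library thus lay far above the highest growth library, though how many of all genes show this was not counted. The median went from 7.94 to 585 FPKM, and the ratio within a line was 21.5 in H3mm7, the line with the highest growth level, and 3139 in H3.1, whose growth level near 0 makes the ratio imprecise. The log2 difference was 6.34 (SE 0.45, 10 against 10 libraries, limma with Benjamini-Hochberg adjusted p = 1.49e-10), and 6.29 without WT (adjusted p = 1.11e-09). As the libraries were made from whole cultures, more myogenin-positive cells and more Myog RNA per cell cannot be told apart.

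Myod1, by contrast, had no common direction. Its growth level was 1.61 FPKM in H3.1, 11.7 in H3t, 25.1 in H3.2, 26.7 in H3mm13, 28.3 in H3mm11, 29.1 in H3mm16, 34.7 in WT, 54.99 in H3.3, 68.0 in H3mm12 and 110 in H3mm7, a 68.4-fold range. After differentiation the lines lay closer together, at 25.9 FPKM in H3mm11, 26.7 in H3mm7, 30.4 in H3.3, 38.1 in H3.1, 39.4 in H3t, 59.8 in H3.2, 62.4 in H3mm16, 64.4 in H3mm13, 73.4 in WT and 107 in H3mm12, a 4.11-fold range. The H3.1 and H3mm7 lines stood at opposite ends in growth and not after differentiation. The level was higher in differentiated cells in 7 lines, with a log2 difference of up to 3.90 in H3.1, and lower in H3.3 (-0.83), H3mm7 (-2.003) and H3mm11 (-0.12). Over the 10 lines the log2 difference was 0.79 (SE 0.48) and was not called (limma, adjusted p = 0.169).

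Myf5, the other myoblast factor, also went either way. In growth it was at 25.3 FPKM in H3.3, 26.4 in H3mm7, 38.2 in H3mm16, 38.4 in H3.1, 40.9 in H3.2, 41.4 in H3mm13, 52.3 in H3mm11, 53.8 in WT, 56.1 in H3t and 64.9 in H3mm12. In differentiated cells it was at 17.5 FPKM in WT, 19.9 in H3mm12, 22.2 in H3mm13, 32.8 in H3mm16, 38.6 in H3.1, 47.5 in H3t, 56.3 in H3.3, 59.9 in H3mm11, 75.1 in H3.2 and 95.9 in H3mm7. The differentiated WT library was thus below all 9 GFP-H3 lines, while in growth WT lay inside their range. The level was higher after differentiation in 5 lines (H3.1, H3.2, H3.3, H3mm7 and H3mm11, by 0.01 to 1.82 on the log2 scale) and lower in the other 5. The log2 difference was -0.05 (SE 0.27, limma adjusted p = 0.884), and 0.12 without WT (adjusted p = 0.723), so its sign depends on that line and no change was called.

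In 8 of the 10 lines Myod1 and Myf5 moved in opposite directions. Myod1 was higher and Myf5 lower in 5 lines (WT, H3t, H3mm12, H3mm13 and H3mm16), and Myod1 was lower and Myf5 higher in 3 (H3.3, H3mm7 and H3mm11). Both were higher in H3.1 and H3.2, and both were lower in none. These directions are single-library differences with no replicate check.

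**Figure D1:**
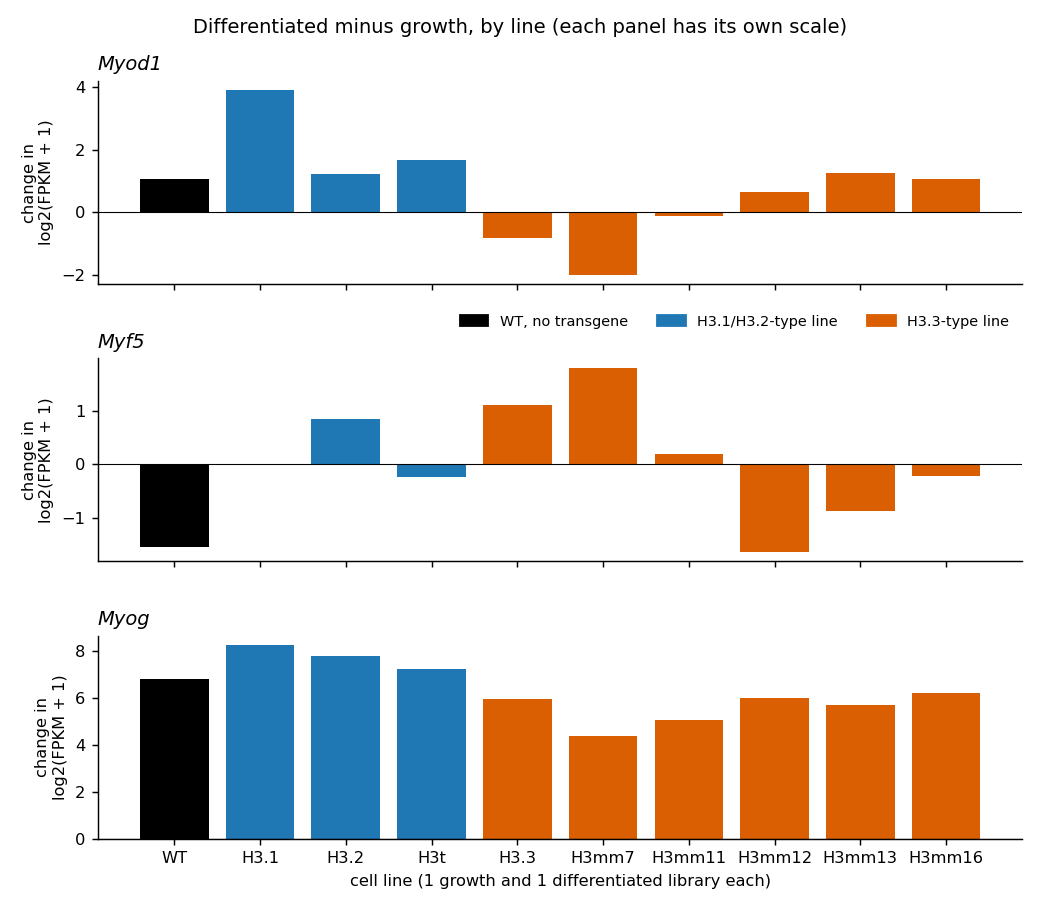
Change from growth to differentiated cells in log2(FPKM + 1) for Myod1, Myf5 and Myog, 1 bar for each line, coloured by the type of H3 the line expresses, with a separate scale in each panel. Myog was higher in all 10 lines (4.37 to 8.24), whereas Myod1 ranged from -2.003 in H3mm7 to 3.90 in H3.1 and Myf5 from -1.65 in H3mm12 to 1.82 in H3mm7, where the Myf5 bar of H3.1 (0.01) is too short to see.

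Six4 was at a low level, with like medians in both states. It was at 3.72 to 7.66 FPKM in growth, with a median of 6.41, and at 3.098 to 10.8 FPKM in differentiated cells, with a median of 6.53. H3.3 was the lowest line in both states, and the state ranges overlapped. Six4 was higher after differentiation in 5 lines and lower in 5, with changes of -0.58 to 0.61 on the log2 scale. The log2 difference between states was 0.01 (SE 0.17, limma adjusted p = 0.950).

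Myf6, Pax7 and Pax3 were below 1 FPKM in every library. Myf6 was at 0.106 FPKM in H3t to 0.413 in H3mm12 in growth (median 0.216). In differentiated cells it lay between 0 in H3mm11 and 0.321 in H3t (median 0.162). Thus the state in which Myog reached at least 329 FPKM was not accompanied by a level of Myf6 above 0.321 FPKM, and its promoter window holds an E-box and a MEF2 match. Pax7 was at 0 in H3.1 to 0.982 in H3mm7 in growth (median 0.101), and H3mm7 stood well above WT, the next highest at 0.248. In differentiated cells Pax7 was at 0.0316 to 0.257 FPKM. Pax3 was at 0 to 0.0529 FPKM in growth and at 0 to 0.0731 in differentiated cells. FPKM keeps no read numbers, so the depth behind these low values is unknown, and a gene listed at 0 is not shown to be absent. Without the filter described next, Myf6 gave a log2 difference of -0.08, Pax7 -0.11 and Pax3 0.02, none of them called (limma adjusted p = 0.201, 0.398 and 0.355).

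**Figure D2:**
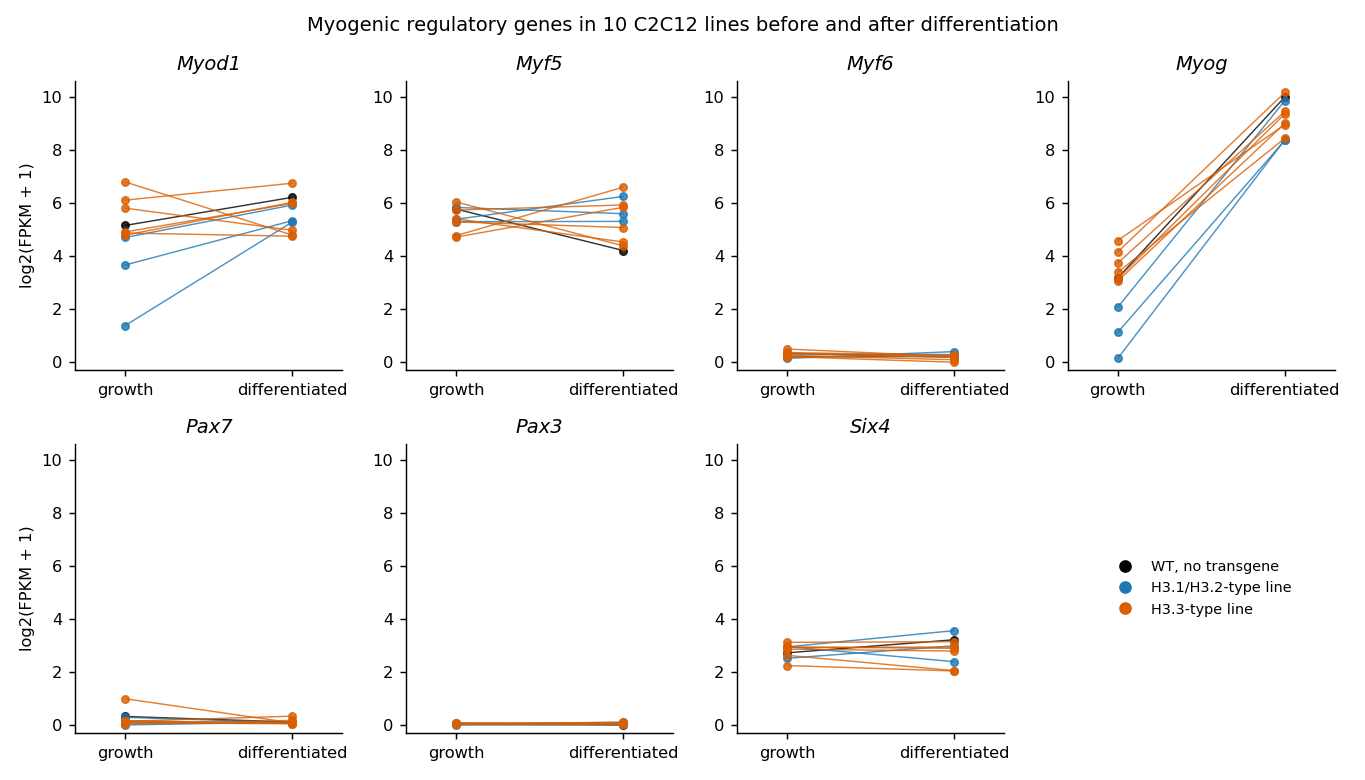
Level of the 7 genes as log2(FPKM + 1) in growth and differentiated libraries, 1 point for each library and 1 line of the plot joining the libraries of a cell line, on a common scale. Myog rises in every line from 0.106 to 23.1 FPKM up to 329 to 1151 FPKM, Myod1 and Myf5 cross over, Six4 stays between 3.098 and 10.8 FPKM, and Myf6, Pax7 and Pax3 stay below 1 FPKM.

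Genes with a mean of at least 1 FPKM over the 20 libraries were tested, and a gene was called at an adjusted p below 0.05 with a log2 difference of at least 1. Of the 7 members 4 (Myod1, Myf5, Myog and Six4) passed this filter, 1 was called higher and 0 were called lower. Over all 10954 genes tested 17.3% were called, 8.87% higher and 8.41% lower. The members' share does not stand apart from this background.

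The make-up of the bHLH transcripts was compared within each library. The scale of the library drops out of shares and plain ratios. It does not drop out fully from the log2 ratios, which were taken with 1 FPKM added to each gene. In growth Myf5 was the most abundant of the 4 bHLH factors in 7 lines and Myod1 in the other 3 (H3.3, H3mm7 and H3mm12). Myog made up 0.263% of their summed FPKM in H3.1 to 15.3% in H3mm13 in growth, and 79.0% in H3t to 91.8% in WT after differentiation. It was therefore a minor transcript of the family in every growth library and the main one in every differentiated library. The log2 ratio of Myog to Myod1 was -1.96 ± 0.58 in growth and 3.60 ± 0.39 in differentiated cells (SD, n = 10), and it was higher in 10 of 10 lines (mean change 5.55 ± 0.83, exact two-sided sign-flip permutation test, p = 0.00195, adjusted over the 3 ratios tested 0.00293). This is the smallest p that 10 lines can give. The log2 ratio of Myf6 to Myog changed by -6.42 ± 1.14, which with Myf6 near 0 in both states restates the rise of Myog and is no separate result. Its size depends on the added FPKM, with -7.14 when 0.1 FPKM was added.

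The balance of the myoblast factors Myf5 and Myod1 differed widely between lines in both states. In growth the ratio of Myf5 to Myod1 was 23.8 in H3.1, 4.79 in H3t, and between 0.239 in H3mm7 and 1.85 in H3mm11 in the others. After differentiation it was 3.59 in H3mm7 and 0.187 in H3mm12, and Myf5 exceeded Myod1 in 6 lines. H3mm7 thus went from the lowest to the highest ratio. With 1 FPKM added to each gene, the log2 ratio was 0.61 ± 1.62 in growth and -0.23 ± 1.40 in differentiated cells. Its mean change was -0.84 ± 2.33, with a change above 0 in 3 of 10 lines, and did not pass (exact sign-flip permutation test, p = 0.27).

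**Figure D3:**
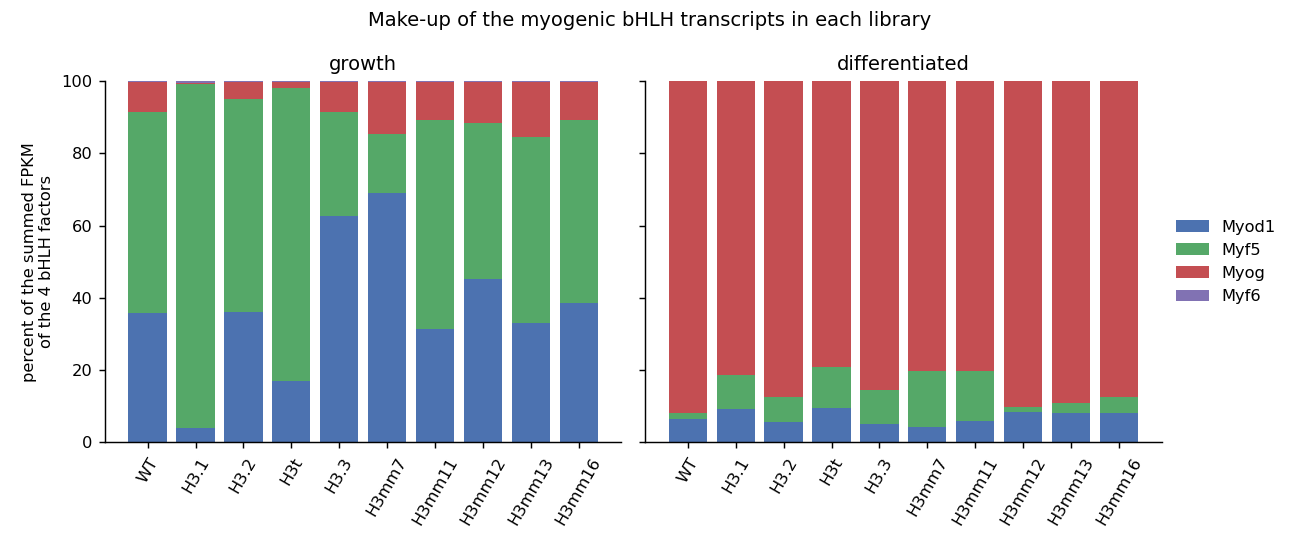
Percent of the summed FPKM of Myod1, Myf5, Myog and Myf6 that each contributes, in the growth and differentiated library of each line. Myog occupies at most 15.3% of a growth bar and at least 79.0% of a differentiated bar, and the split between Myf5 and Myod1 in growth ranges from 95.2% Myf5 in H3.1 to 68.9% Myod1 in H3mm7.

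Across the 10 lines Myog followed Myod1 within each state. Pearson's r of log2(FPKM + 1) was 0.92 in growth (Spearman's rho 0.77) and 0.84 in differentiated cells (rho 0.77). Without the 2 lines farthest from the median of Myod1 r was 0.79 in growth, where these were H3.1 and H3mm7, and 0.72 in differentiated cells. Myod1 and Myf5 ran in opposite directions in differentiated cells (r = -0.78, rho -0.83, and -0.72 without the 2 farthest lines) but had little relation in growth (r = -0.19). The genes of a pair were read from the same libraries and share their scale, and WT is 1 of the 10 points. These are descriptions over 10 libraries, given without a p.

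**Figure D4:**
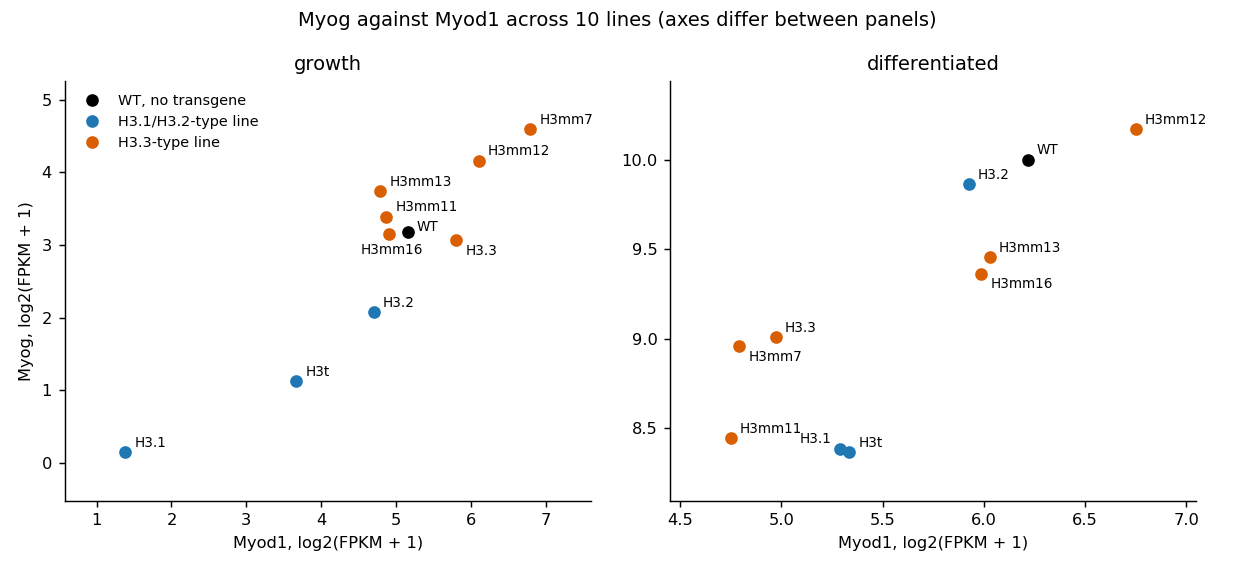
Level of Myog against Myod1 as log2(FPKM + 1) across the 10 lines, in growth and in differentiated cells, 1 point for each line with axes that differ between panels. In growth H3.1, H3t and H3.2 lie at the lower left (Myog at 0.106, 1.19 and 3.21 FPKM) and H3mm7 at the upper right, and in differentiated cells H3mm12 is highest for both genes.

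The type of H3 was compared between the 3 lines with an H3.1/H3.2-type protein (H3t, H3.1 and H3.2) and the 6 with an H3.3-type protein (the H3mm lines and H3.3), a division that here follows a motif in the histone core described in the study. In growth Myog was at 0.106, 1.19 and 3.21 FPKM in the former lines and at 7.35 to 23.1 FPKM in the latter, and WT was at 8.02. The log2 difference was 2.56 (SE 0.45, limma adjusted p = 0.0245), so that 1 of the 4 members tested was called, where 0.21% of all genes were. The call rests on few lines. It was lost without H3.1 (2.08, adjusted p = 0.107), H3t (2.57, adjusted p = 0.144), H3mm7 (2.38, adjusted p = 0.0571), H3mm13 (2.55, adjusted p = 0.0780) or H3mm16 (2.67, adjusted p = 0.0517), although the direction held. With pseudocounts of 0.1 and 0.01 FPKM the difference was 3.63 and 3.94, and it was called in both.

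Myod1 in growth was at 1.61 to 25.1 FPKM in the H3.1/H3.2-type lines and 26.7 to 110 FPKM in the H3.3-type lines. Its groups met closely at 25.1 in H3.2 and 26.7 in H3mm13. The log2 difference was 2.30 (SE 0.61) and was not called (limma adjusted p = 0.169), and without H3.1 it was 1.36. For Myog and Myod1 alike, the share of all genes whose type groups lie apart in growth was not counted. No weight is therefore put on such a gap between few lines. Myf5 (-0.18, adjusted p = 0.937) and Six4 (-0.02, adjusted p = 0.995) were not called.

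In differentiated cells the types overlapped for each member tested. Myog was at 329, 333 and 930 FPKM in the H3.1/H3.2-type lines and at 347 to 1151 FPKM in the H3.3-type lines, a log2 difference of 0.36 (SE 0.45, limma adjusted p = 0.702). Myod1 differed by 0.03, Myf5 by -0.32 and Six4 by -0.34, and 0 of 4 were called where 0.749% of all genes were. These differences rest on few lines, since leaving out 1 line gave 0.11 (without H3t) to 0.86 (without H3.2) for Myog. The H3.3-type lines were not alike. Myod1 was at 25.9 to 30.4 FPKM in H3mm11, H3mm7 and H3.3, and at 62.4 to 107 in H3mm16, H3mm13 and H3mm12. Myf5 was at 56.3 to 95.9 FPKM in the former and at 19.9 to 32.8 in the latter. The study grouped the former together by expression after differentiation in these same libraries. This split was seen in the values and was not tested. The test of whether the types changed differently with differentiation gave -2.20 for Myog (SE 0.63, limma adjusted p = 0.349) and -2.27 for Myod1 (SE 0.86, adjusted p = 0.478). With the line as a block, which pairs the libraries of a line, the SE was 0.40 for Myog (limma adjusted p = 0.106). For Myod1 it was 0.78 (adjusted p = 0.222). Neither was called in either fit, so the growth difference in Myog is not shown to differ from that in differentiated cells. In the fit without the block limma called 0 of 10954 genes (0%), with 1002 at an unadjusted p below 0.05.

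The genes known to be switched on by these factors rose together with Myog. Of 22 target names 20 were in the table. All 20 were tested and called higher in differentiated cells, where 8.87% of all genes tested were. The list was chosen with earlier results of these data known. It holds Actc1 and Tnni1, which the study had picked from the same mRNA-Seq data as leading genes of differentiation. The count is therefore a description and no independent support. Their median log2 difference was 6.51 against 0.04 over all genes tested. Only the receptor kinase Musk fell in a line, from 5.12 FPKM in growth to 3.85 after differentiation in H3mm7. Mymk and Mymx were not found under those names, while their older names Tmem8c and Gm7325 were and are counted. Actc1, cardiac alpha-actin, which is expressed in developing skeletal muscle, was at 0.560 to 6.85 FPKM in growth and 257 to 4205 FPKM after differentiation (log2 difference 8.55, SE 0.51, limma adjusted p = 1.06e-11). Myl4, an embryonic myosin light chain, was at 1.64 to 5.41 and then at 315 to 2315 FPKM (7.95, SE 0.33, adjusted p = 2.08e-13). The smallest change on the list was that of Rapsn, which clusters acetylcholine receptors, at 1.10.

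In growth, the lines at the ends of the Myog range also stood at the ends for several of these targets. The H3.1 line was the lowest of the 10 growth libraries for 8 of the 20 targets (40% against 9.75% of all genes tested), and H3mm7 the highest for 12 (60% against 16.2%). Of 9 satellite cell genes tested, H3.1 was the lowest for 4 (44.4%) and H3mm7 the highest for 3 (33.3%). The trait is thus not particular to the targets. Tnnt3, fast troponin T, was at 0.189 FPKM in H3.1 and 11.97 in H3mm7, and Myl1, a fast myosin light chain, at 0.274 and 46.3. Musk, the receptor kinase of the neuromuscular junction, was at 0.0222 FPKM in H3.1 and 5.12 in H3mm7. Des, Cdh15 and Chrna1, which are already high in myoblasts, were at 219, 55.5 and 51.6 FPKM in the growth library of H3.1, inside the range of the other lines. For 1 target, Chrnb1, H3.1 was the highest growth library (29.9 FPKM). The part of these differences in the growth levels of Myod1 and Myog was not tested.

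The partners and inhibitors of the bHLH factors split by gene, and the counts below stand beside the 17.3% of all genes that were called (8.87% higher and 8.41% lower). Of the 3 E proteins, which pair with the myogenic factors, Tcf3 was called lower (median 52.8 to 25.1 FPKM, log2 difference -1.02, SE 0.15, limma adjusted p = 6.30e-06). Tcf4 (0.94) and Tcf12 (0.69) were higher by less than the threshold of 1, with adjusted p of 5.82e-05 and 2.49e-05. Of 15 inhibitors tested, 4 were called lower, 3 higher and 8 were not called. Id2 and Id3, which sequester E proteins, had log2 differences of -3.81 and -3.46, with Id3 going from a median of 380 to 30.0 FPKM. Heyl, a Notch target, and Zeb1, a repressor of E-box genes, rose by 1.23 and 1.20. Heyl was near 0 in growth (median 0.233 to 1.97 FPKM), so the size of its change depends on the added FPKM. Zeb1 went from a median of 9.82 to 25.7 FPKM. The list thus held members moving both ways, and its median was 0.20.

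Against the same shares over all genes (8.87% higher, 8.41% lower), of 14 genes for Mef2 factors and coactivators tested, 2 were called higher, 0 lower and 12 were not called. Mef2a, which acts with the bHLH factors at muscle promoters, rose from a median of 13.1 to 47.4 FPKM (1.92, SE 0.16, limma adjusted p = 1.28e-09). Mef2c rose from 0.0710 to 1.58 FPKM (1.42, SE 0.41, adjusted p = 0.00509), with 26.6 FPKM in the highest library. Of 11 corepressors, 3 were called lower, 0 higher and 8 were not called. The histone methyltransferases Suv39h1 and Ezh2 had log2 differences of -2.10 and -1.77.

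Of 5 genes tested on the list of Eya and Dach partners 0 were called, where 17.3% of all genes were. Eya4 was higher in 10 of 10 lines by less than the threshold (0.85, limma adjusted p = 3.46e-06). Of 6 upstream regulators 1 was called, Foxc2, a forkhead factor, which fell by 2.66 on the log2 scale (median 20.9 to 3.16 FPKM), and 5 were not called, a share near that of all genes. Met, the receptor of hepatocyte growth factor, was lower in all 10 lines by less than the threshold (-0.80, adjusted p = 1.97e-05). Of 9 satellite cell genes 3 were called higher, 1 lower and 5 were not called. Itga7, the laminin receptor of muscle, and Ncam1, a neural cell adhesion molecule of myotubes, rose by 2.34 and 2.05, and Sdc3, a syndecan, fell by 1.31.

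**Figure D5:**
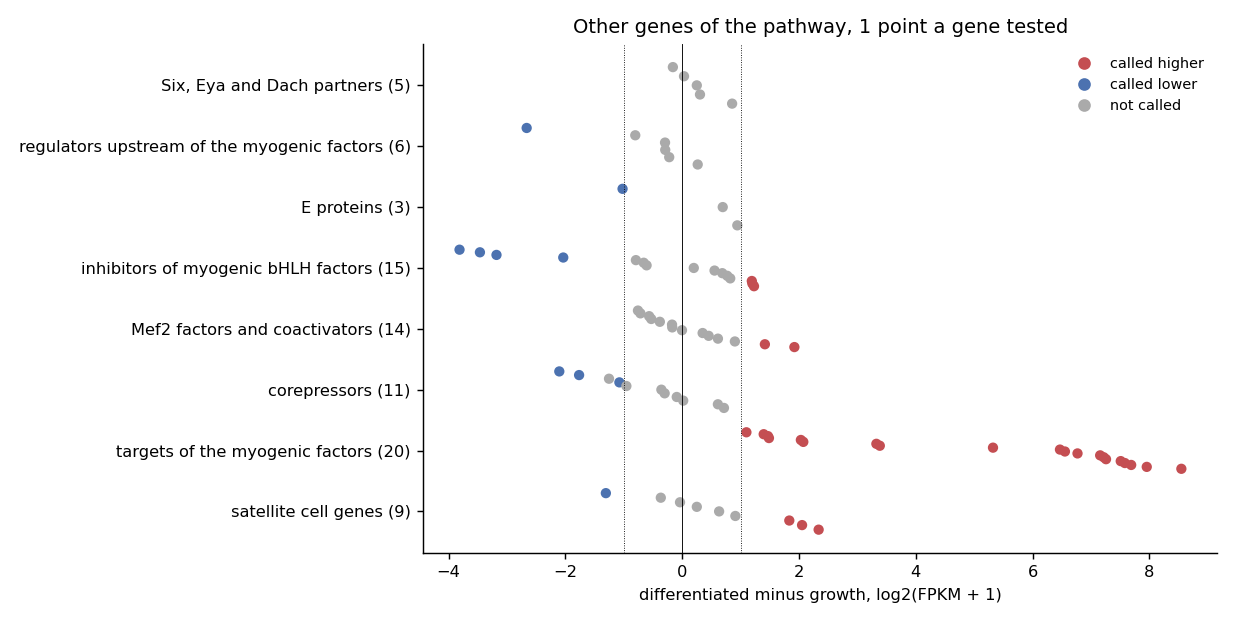
Difference between differentiated and growth libraries in log2(FPKM + 1) for the other genes of the pathway, 1 point for each gene tested, with the number of genes tested beside the name of each list and dotted lines at -1 and 1. All 20 targets lie on the right and are called higher, while the inhibitors spread from -3.81 (Id2) to 1.23 (Heyl).

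The genes whose pattern was most like that of a member were found by Pearson's r of log2(FPKM + 1) among 10950 genes. For Myog over the 20 libraries these were Tmem8c (myomaker, needed for fusion, r = 0.989), Mylpf (0.987) and Myom2 (0.987), a pattern set by the step between states. After the mean of each state was subtracted, over the 18 GFP-H3 libraries, they were Jsrp1 (0.935), Tmem8c (0.925) and Cacng1 (0.916). For Myod1 they were Mylk2 (0.819), Coro2b (0.799) and Myl9 (0.787) over the 20 libraries, and Coro2b (0.942), Ptgis (0.890) and Igfbp5 (0.886) within states. Igfbp5, which encodes an insulin-like growth factor binding protein, averaged 62.3 FPKM in growth and 388 after differentiation.

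Myf5 and Six4 had other neighbours. For Myf5 these were Ostf1, Alg5 and Max (0.799, 0.798 and 0.797) over 20 libraries and Paxbp1, Tada2a and Slc35b3 (0.882, 0.879 and 0.879) within states. For Six4 they included Hnrnph2 and Zfp266 (0.849 and 0.846) over 20 libraries, and were Npepps, Zfp949 and Lnpep (0.934, 0.928 and 0.920) within states. These are the highest of many correlations over few libraries, and they are a description of likeness only.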

How the data were processed

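mRNA-Seq of C2C12 cells without a transgene and of 9 GFP-H3 lines was used, with 1 growth and 1 differentiated library for each line. The authors deposited FPKM values for 22489 genes. According to the submitters' processing notes and the methods, reads of the GFP-H3 lines were mapped to mm9 with TopHat2 2.0.8 and FPKM was estimated with Cuffdiff of Cufflinks 2.0.1. How the WT reads were mapped is not given in the sources used here. FPKM keeps no read numbers, and low values did not fall on whole multiples of a common step (fit 0.119 to 0.517 over the libraries, where 1 is perfect), so depth is unknown and no counting interval is given. The 3′-seq tables hold histone genes only and were not used, and ChIP-seq was not analysed here.

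Genes were tested with limma 3.58.1 (R 4.3.3) on log2(FPKM + 1), with its trend and robust options, a pseudocount of 1 FPKM and a mean of at least 1 FPKM over 20 libraries. P-values were adjusted by the Benjamini-Hochberg method over the 10954 genes tested. The contrasts were differentiated against growth (10 and 10 libraries), and the type of H3 (3 lines of the H3.1/H3.2 type, 6 of the H3.3 type), separately for growth and differentiated libraries and as the interaction with state (18 libraries, 1 estimate of spread). Lines stand in for replicates, and p-values measure the spread between lines. Log2 ratios, with 1 FPKM added to each gene, were tested by an exact two-sided sign-flip permutation over lines. Both libraries of a line come from the same named line, which pairs them. Their deviations from the state means correlated with r of 0.273 to 0.877, highest with the own line in 10 of 10. Promoters were read from the mm9 sequence and annotation. The alternatives were other pseudocounts, filters, scalings and limma settings, the line as a block, and leaving out each line.

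Named genes are the 7 members, up to 2 genes with the largest rise and 2 with the largest fall among those called in each pathway list, all genes of pathway lists of 3 or fewer, and the 3 genes most like each member tested, of which 1 is not reported here. Rapsn, Eya4, Met, Tnnt3, Myl1, Musk, Des, Cdh15, Chrna1, Chrnb1, Tnni1 and the cell type markers outside this rule were chosen after their values were seen. The members and lists were chosen with earlier results of these data known. The limma script was tested on simulated data. All other steps ran in Python 3.11.15 with pandas 2.3.3, numpy 2.4.6 and, for plots, matplotlib 3.10.9.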

Additional observations from a re-analysis of the deposited data

Results flagged for a closer look

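Pax7, the satellite cell factor, had a highest library far from the rest in 3 sets of libraries, out of 28 sets examined over the 7 genes. Both flags in growth came from the same H3mm7 library, in sets that overlap. The usual rate of about 1 in 20 assumes separate sets and normal values, so it is no guide here. In growth H3mm7 was at 0.982 FPKM, and the gap to the next library was 0.676 of the whole range over the 10 lines (critical value 0.466) and 0.864 over the 6 H3.3-type lines (critical value 0.625). In differentiated cells H3mm16 was at 0.257 FPKM, with a gap of 0.563 of the range. All of these values are below 1 FPKM at unknown depth, and neither line was the highest in the other state.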

How the results depend on the processing

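The rise of Myog and the change in the ratio of Myog to Myod1 kept their direction and call under every alternative run. Leaving out each GFP-H3 line gave 6.13 to 6.56 for Myog, 5.42 to 5.69 for this ratio, and -1.36 to -0.50 for Myf5 to Myod1. Differences that were not called changed sign: without WT, Myf5 (0.12) and Six4 (-0.039) between states, with median-of-ratios scaling Six4 between types in growth (0.0010), and with quantile normalization Myod1 between types in differentiated cells (-0.016). Leaving out each GFP-H3 line, the state differences were 0.44 to 1.10 for Myod1, -0.26 to 0.13 for Myf5 and -0.052 to 0.080 for Six4. The type differences in growth were 2.08 to 3.04 for Myog (adjusted p 0.00642 to 0.144, the call lost without 5 of the 9 lines), 1.36 (without H3.1) to 3.02 for Myod1 and -0.17 to 0.089 for Six4. In differentiated cells they were 0.11 to 0.86 for Myog, -0.21 to 0.24 for Myod1, -0.57 to -0.059 for Myf5 and -0.63 to -0.046 for Six4. The interaction for Myf5 was -0.50 to 0.20, and that for Myog went from -2.20 to -3.27 and -3.58 with pseudocounts of 0.1 and 0.01 FPKM.

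Counts between types depended on the settings. In growth 23 genes were called, against 46 and 70 with pseudocounts of 0.1 and 0.01 FPKM, 14 without the filter, 14 when genes needed a mean of 5 FPKM, and 2 (without H3.1) to 25 without 1 line (moved by over 1.5 times by each line but H3mm11 and H3mm12). In differentiated cells 82 were called, against 134 with a pseudocount of 0.1 FPKM, 39 without the filter, 49 at a minimum of 5 FPKM, and 3 (without H3.1) to 295 (without H3.2) without 1 line (moved by each line but H3mm7). The interaction gave 0, against 2 without the filter, 1 at that minimum, 4 with quantile normalization, 3 with the line as a block, and 0 to 2 without 1 line. The cause was not tested. Between states 1893 genes were called, 1849 to 1972 without 1 line (948 to 1020 higher and 897 to 952 lower). With the line as a block, 1910 were called (979 higher and 931 lower), and the block changed no call of a member. It could not be used for types within a state, where each line has 1 library. Unknown depth limits what can be said of Myf6, Pax7 and Pax3.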
